A study of Mus musculus with 22 samples.

Results

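The mouse genes examined here are those with the most open chromatin sites around them in hepatocyte nuclei: 84 genes, each with 20 or more ATAC-seq peaks within 50 kb of an annotated transcription start. They are 0.536% of the 15686 genes that have at least 1 such peak, and they hold 1968 of the 68827 peaks, or 2.86%. A peak belonged to a gene when the deposited table named that gene and gave a distance of at most 50 kb from its start. The rule counts peaks and uses no fold change, but a peak counts even where it is near 0 in some groups. Rbm47, an RNA-binding protein gene, had the most peaks, 39, against a median of 2 per gene over all genes. At the edge of the rule, 19 genes had exactly 20 peaks and 36 genes had 19 and were left out.

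Nuclei came from livers of male HEP-INTACT mice, in which nuclei of 1 cell type carry a tag and are pulled out of the tissue on beads, and every group shared this tag. Mice ate the FPC diet (fructose, palmitate and cholesterol) for 20 weeks or the choline-deficient CDAHFD for 7 weeks, and those on each diet were split by liver histology into advanced disease, with fibrosis, and mild disease, with fat and inflammation but little fibrosis. The groups were FPC advanced (3 libraries), FPC mild (4), FPC control on a low-fat diet for 20 weeks (4), CDAHFD advanced (3), CDAHFD mild (4) and CDAHFD control on a low-fat diet for 7 weeks (4). Each of the 22 libraries came from its own mouse, and neither the driver of the tag nor the mice's age is given in the sources used here.

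ATAC-seq cuts DNA where nucleosomes leave it open, so a peak marks an accessible promoter, enhancer or boundary site, and its count rises with how open the site is and in how many cells. Long runs of such sites are known around genes that a cell type keeps under tight control, and hepatocytes are known to lose and gain accessible sites in fatty liver disease. In bulk nuclei, fewer cells with an open site and less opening per cell cannot be told apart, and a count near a gene is not its expression.

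Several of the 84 genes have more than 1 annotated start, and 4 of them, whose starts changed by different amounts, are described further on. The 250 bases before each of these starts that carried a peak are printed here from RefSeq (GRCm38.p6, 5′ to 3′ on the gene's strand), so that the separate starts can be set side by side. Capitals mark bases inside the ATAC-seq peak, and start 1 is the most upstream. The 4 genes were chosen after their values were seen.
Dab2ip start 1, chr2:35582590-35582839, plus strand: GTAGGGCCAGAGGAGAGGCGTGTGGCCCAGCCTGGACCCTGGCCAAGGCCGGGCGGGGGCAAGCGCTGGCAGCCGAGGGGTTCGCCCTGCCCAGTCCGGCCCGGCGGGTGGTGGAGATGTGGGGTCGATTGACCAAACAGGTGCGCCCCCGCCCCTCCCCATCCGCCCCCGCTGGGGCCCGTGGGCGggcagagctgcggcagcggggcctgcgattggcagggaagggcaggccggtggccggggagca
Dab2ip start 2, chr2:35621731-35621980, plus strand: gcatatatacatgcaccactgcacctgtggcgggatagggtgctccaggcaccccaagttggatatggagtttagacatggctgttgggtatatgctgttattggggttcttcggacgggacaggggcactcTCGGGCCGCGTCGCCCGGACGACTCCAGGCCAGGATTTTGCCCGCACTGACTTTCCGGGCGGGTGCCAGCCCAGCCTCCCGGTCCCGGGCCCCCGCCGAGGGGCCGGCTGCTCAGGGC
Dab2ip start 3, chr2:35691744-35691993, plus strand: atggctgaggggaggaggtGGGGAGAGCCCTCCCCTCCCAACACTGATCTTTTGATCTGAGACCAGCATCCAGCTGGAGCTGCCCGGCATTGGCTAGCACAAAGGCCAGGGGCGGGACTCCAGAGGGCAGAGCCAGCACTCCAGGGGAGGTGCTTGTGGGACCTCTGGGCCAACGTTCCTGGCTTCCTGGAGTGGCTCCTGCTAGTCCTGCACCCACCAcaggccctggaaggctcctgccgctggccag
Sgms1 start 1, chr19:32388513-32388762, minus strand: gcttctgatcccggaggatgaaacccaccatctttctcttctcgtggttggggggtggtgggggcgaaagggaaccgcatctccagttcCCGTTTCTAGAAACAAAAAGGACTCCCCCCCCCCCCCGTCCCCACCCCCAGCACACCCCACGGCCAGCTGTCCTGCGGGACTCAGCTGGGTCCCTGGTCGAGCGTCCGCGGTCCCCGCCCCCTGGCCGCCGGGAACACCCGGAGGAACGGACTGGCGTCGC
Sgms1 start 2, chr19:32211014-32211263, minus strand: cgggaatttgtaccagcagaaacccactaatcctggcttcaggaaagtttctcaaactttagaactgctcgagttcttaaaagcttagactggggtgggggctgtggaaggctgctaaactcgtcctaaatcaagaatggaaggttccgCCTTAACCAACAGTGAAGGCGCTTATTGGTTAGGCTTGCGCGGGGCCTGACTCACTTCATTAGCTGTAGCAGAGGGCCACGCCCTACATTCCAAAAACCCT
Prkag2 start 1, chr5:25100643-25100892, minus strand: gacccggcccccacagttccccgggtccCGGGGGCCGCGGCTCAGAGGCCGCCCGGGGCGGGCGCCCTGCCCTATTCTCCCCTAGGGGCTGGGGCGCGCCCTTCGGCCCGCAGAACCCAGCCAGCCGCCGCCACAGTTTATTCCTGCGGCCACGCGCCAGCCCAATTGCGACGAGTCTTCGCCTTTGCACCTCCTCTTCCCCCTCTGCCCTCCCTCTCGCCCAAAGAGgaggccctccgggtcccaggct
Prkag2 start 2, chr5:24908510-24908759, minus strand: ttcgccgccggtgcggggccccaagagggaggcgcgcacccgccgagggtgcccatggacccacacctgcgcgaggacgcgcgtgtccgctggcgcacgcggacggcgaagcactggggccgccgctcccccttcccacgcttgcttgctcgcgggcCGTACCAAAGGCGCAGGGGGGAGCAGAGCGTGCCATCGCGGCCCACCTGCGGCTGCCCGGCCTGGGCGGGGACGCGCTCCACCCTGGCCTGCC
Bcar3 start 1, chr3:122419507-122419756, plus strand: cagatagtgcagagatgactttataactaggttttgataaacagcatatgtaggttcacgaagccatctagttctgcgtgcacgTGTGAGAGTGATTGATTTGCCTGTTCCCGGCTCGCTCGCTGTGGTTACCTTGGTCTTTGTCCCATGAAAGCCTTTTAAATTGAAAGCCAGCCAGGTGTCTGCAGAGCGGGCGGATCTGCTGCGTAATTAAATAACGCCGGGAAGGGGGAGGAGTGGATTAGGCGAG
Bcar3 start 2, chr3:122483319-122483568, plus strand: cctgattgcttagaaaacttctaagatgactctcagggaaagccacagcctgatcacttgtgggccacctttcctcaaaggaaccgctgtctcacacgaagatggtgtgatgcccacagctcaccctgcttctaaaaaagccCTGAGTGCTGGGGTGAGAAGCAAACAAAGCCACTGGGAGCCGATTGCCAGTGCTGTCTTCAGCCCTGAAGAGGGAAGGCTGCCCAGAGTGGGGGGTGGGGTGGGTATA

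The windows differ in base composition. GC content was 76.0%, 64.8% and 64.8% at the 3 Dab2ip starts, 67.2% and 49.6% at the Sgms1 starts, 73.2% and 77.2% at the Prkag2 starts and 49.2% and 54.4% at the Bcar3 starts. Of the motifs searched on both strands, AP-1 (TGANTCA) and TEAD (GGAATG) matched once each at Sgms1 start 2, both inside the peak, and C/EBP (TTGNNCAA) matched once inside the peak at Dab2ip start 1. No motif of the list matched in the other windows printed, which says only that these letters are not there. Over the 80 distinct starts of 58 member genes that overlapped a peak by at least 50 bp, and counting also 50 bases past the start, AP-1 matched in 6.25%, beside 7.81% of 32851 RefSeq start windows of that length, and TEAD in 12, beside 4817 of all windows (14.7%). C/EBP matched in 3.75% of the member starts, beside 6.40% of all windows, and the forkhead motif (TGTTTAC) in none of the member starts, beside 3.65%. Median GC content was 64.3% at the member starts, beside 52.7% over all windows. The member starts were kept only where a peak overlapped them, and the set of all windows was not filtered for a peak. The part of that filter in these differences was not tested.

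Most peaks of the 84 genes lay inside introns, far from the start. Introns held 62.0% of the 1968 peaks, beside 48.7% of the 11786 peaks of the 934 genes with 10 to 19 peaks and 39.6% of all 56777 peaks within 50 kb of a start, by the deposited region types. Promoters held 9.25%, beside 12.9% and 27.5%. The median distance from the start was 13522 bp, beside 10510 bp for genes with 10 to 19 peaks and 4625 bp for all near peaks. The genes themselves were long, with a median length of 92.3 kb against 41.6 kb and 19.7 kb. They also stood further from the next protein-coding gene, at a median of 15.8 kb against 8.93 kb and 2.78 kb. In 65.5% of them the peaks had more than 1 annotated start as their nearest, against 46.7% and 21.9%. More peaks give more chances of this, and it does not show that a start is used. Of the 58 member genes with a peak at a start, 18 had peaks at 2 or more starts. Taken over all distances, single peaks were not unusual in height: the median in FPC controls was 9.97 CPM (counts scaled to a common library total) for member peaks, 10.4 CPM for genes with 10 to 19 peaks and 10.3 CPM for all near peaks. Within 1 kb of a start the FPC control median was lower for member peaks, at 11.4 CPM beside 15.1 CPM for all near peaks. It was higher between 1 and 10 kb (10.3 beside 9.01 CPM) and between 10 and 50 kb (9.51 beside 8.72 CPM). Neighbouring peaks of a member gene were a median of 1912 bp apart, and 124 of 1884 neighbouring pairs (6.58%) overlapped and so shared reads. These comparisons are descriptive, since length and spacing take part in how many peaks a gene can collect.

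Totals over peaks were 5971488 to 7135524 counts in FPC advanced libraries, against 3785066 to 6039070 counts in FPC controls, which were the shallowest, and ran up to 9328963 counts over all libraries. The 84 genes took 2.52% of counts in FPC advanced libraries and 2.67% in FPC controls, and 2.57% in CDAHFD advanced libraries and 2.65% in CDAHFD controls. All 15 hepatocyte markers on the list had peaks within 50 kb, and their summed gene CPM was 2504 to 3094 in FPC advanced libraries, against 3302 to 3706 in FPC controls. Peaks were also assigned to 12 of 15 cholangiocyte markers, whose sum was 561 to 692 CPM in FPC advanced libraries, against 315 to 347 CPM in FPC controls, with 11 of the 12 higher, among them Krt7 at 7.97 against 0.997 CPM. On CDAHFD that sum was 520 to 548 CPM, against 303 to 357 CPM in controls. Of 20 stellate cell markers 5 had a peak within 50 kb, and Des, Lrat and Pdgfrb had none. Their sum was 149 to 168 CPM in FPC advanced libraries, against 76.1 to 115 CPM in FPC controls, with 3 of the 5 higher (Sparc, Bgn and Col1a1) and 1 lower, and 142 to 143 CPM in CDAHFD advanced libraries, against 97.0 to 117 CPM in CDAHFD controls. The 7 of 20 macrophage markers with a peak summed to 120.0 to 126 CPM in FPC advanced libraries, against 94.6 to 101 CPM in FPC controls, and the 15 of 20 endothelial markers to 391 to 403 CPM, against 350.5 to 364 CPM, while both overlapped on CDAHFD. The 6 of 20 lymphocyte markers went the other way, at 295 to 317 CPM in FPC advanced libraries, against 377 to 398 CPM in FPC controls, and 319 to 347 CPM in CDAHFD advanced libraries, against 379 to 425 CPM in CDAHFD controls. None of the 84 genes is on a marker list, and the part of these shifts in the results below was not tested.

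In most of the 84 genes some sites were more open and others less open in advanced than in control livers, and the share of their peaks that changed was close to that of all peaks. On FPC, 440 of the 1968 peaks were higher and 626 lower in advanced than in control livers (edgeR quasi-likelihood test, Benjamini-Hochberg adjusted p under 0.05 over all 68827 peaks), 54.2% in all, where 55.6% of all peaks were called. On CDAHFD, 472 were higher and 599 lower, 54.4%, where 55.5% of all peaks were called. By direction, 22.4% of member peaks were higher and 31.8% lower on FPC, beside 27.6% and 28.0% of all peaks, and 24.0% were higher and 30.4% lower on CDAHFD, beside 26.7% and 28.8%. All peaks within 50 kb of a start were 29.2% higher and 25.2% lower on FPC, and those of genes with 10 to 19 peaks 23.0% and 30.0%. On CDAHFD these were 27.7% and 25.9%, and 24.5% and 29.2%. Of changes over 2-fold, 220 called peaks were higher and 203 lower on FPC (11.2% and 10.3%, beside 11.4% and 9.67% of all peaks), and 249 were higher and 170 lower on CDAHFD (12.7% and 8.64%, beside 12.1% and 9.35%). In these larger changes alone the members leaned as the whole table did. In 68 of the 84 genes (81.0%) at least 1 peak was higher and at least 1 lower in FPC advanced livers, 7 genes had only higher calls and 9 only lower ones. On CDAHFD these numbers were 73 genes (86.9%), 4 and 7. A gene with more peaks has more chances of mixed calls, and such calls were found in 62.3% of genes with 10 to 19 peaks on FPC and 70.5% on CDAHFD.

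How far peaks of 1 gene moved together depended on their spacing, in the members as over all genes with a peak within 50 kb. Over neighbouring peaks of a gene, Pearson's r of the log2 changes on FPC was 0.930 for the 124 overlapping pairs, 0.597 for 551 pairs that did not overlap but lay within 1 kb, 0.366 for 717 pairs 1 to 5 kb apart and 0.298 for 492 pairs further apart. On CDAHFD these were 0.869, 0.537, 0.310 and 0.167. Over all genes with a peak within 50 kb they were 0.918, 0.624, 0.439 and 0.278 on FPC. On CDAHFD the values over all such genes were 0.906, 0.578, 0.382 and 0.234. The pairs share libraries and, where they overlap, reads, so these values are a description. Differences between genes accounted for 26.1% of the variance of peak log2 changes on FPC and 21.4% on CDAHFD, and the median SD within a gene was 0.762 and 0.798. For genes with 10 to 19 peaks these shares were 27.8% and 23.0%, and the SD was 0.656 and 0.694. Over all genes with a peak within 50 kb they were 33.5% and 28.8%, and 0.485 and 0.5065. By distance from the start, within 1 kb 74 of 255 member peaks were higher and 51 lower on FPC, whereas between 1 and 10 kb 99 of 562 were higher and 184 lower, and between 10 and 50 kb 267 of 1151 were higher and 391 lower. On CDAHFD 62 peaks within 1 kb were higher and 43 lower, and 299 peaks between 10 and 50 kb were higher and 381 lower. Within 1 kb, 29.0% of member peaks were higher and 20.0% lower on FPC, beside 38.9% and 12.1% of all near peaks there, and 24.3% and 16.9% on CDAHFD, beside 31.5% and 13.7%. Between 1 and 10 kb the member shares on FPC were 17.6% and 32.7%, beside 23.7% and 30.6%. Between 10 and 50 kb they were close to those of all near peaks, at 23.2% and 34.0% on FPC, beside 24.0% and 33.6%, and 26.0% and 33.1% on CDAHFD, beside 25.9% and 34.3%.

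Summing all peaks of a gene gives its total accessible signal, as CPM of the counts in peaks within 50 kb of any start (a different scale from the CPM of single peaks). By this sum 14 genes rose and 45 fell in FPC advanced livers, 70.2% of 84, where 61.5% of all 15686 genes were called, 32.4% higher and 29.0% lower. In CDAHFD advanced livers 15 rose and 37 fell, 61.9%, where 58.2% were called, 30.2% higher and 28.0% lower. The median log2 change over the 84 genes was -0.17 on FPC and -0.13 on CDAHFD, beside 0.03 and 0.01 over all genes. Genes with 10 to 19 peaks leaned the same way. On FPC 23.4% of them rose and 47.9% fell (median -0.16), beside 16.7% and 53.6% of the 84. On CDAHFD 24.7% rose and 38.7% fell (median -0.09), beside 17.9% and 44.0%. This lean to lower sums depends on the scaling. With cyclic loess scaling 30 genes rose and 29 fell on FPC, with a median of 0.00, and 20 rose and 27 fell on CDAHFD. When the sums took the library factors of the peak table, an alternative chosen after seeing the data, 21 rose and 40 fell on FPC and 17 rose and 31 fell on CDAHFD. Summing only peaks over 1 kb from the start gave 23 and 34 on FPC, and 17 and 30 on CDAHFD. The order of the genes and the peaks called near each are shown in the plot of gene sums.

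**Figure D1:**
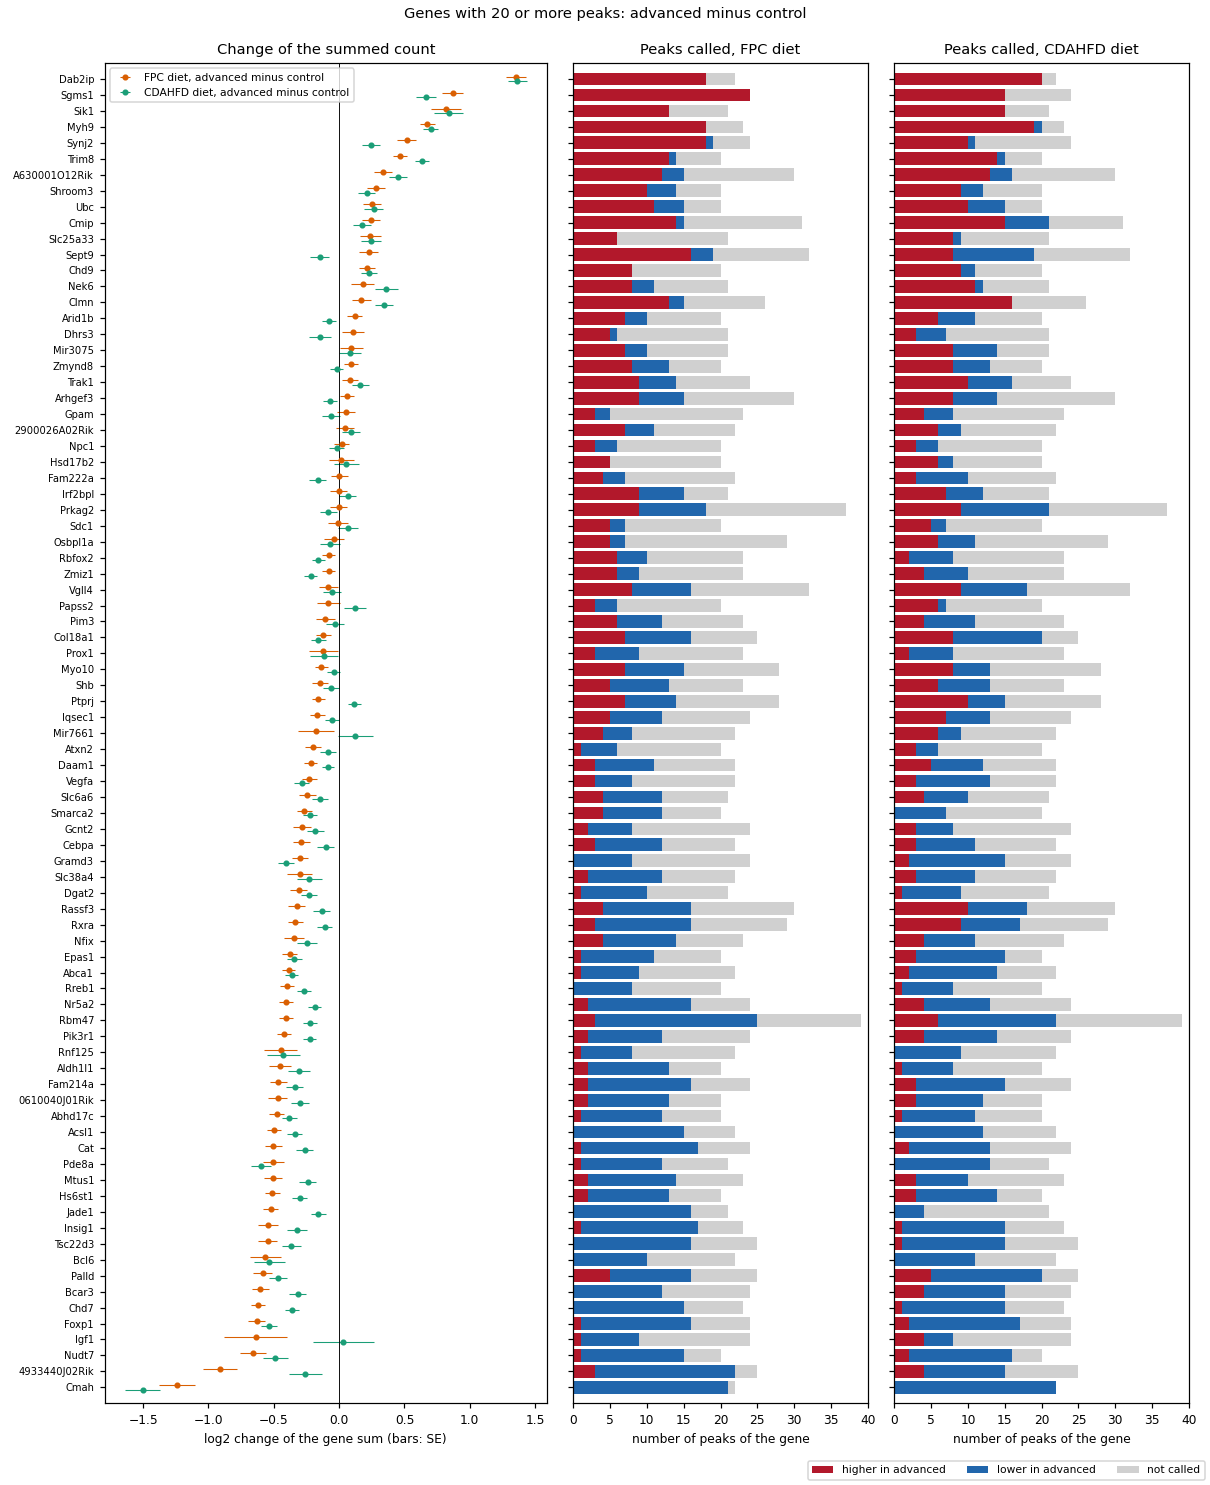
Left, log2 change of the summed count of each of the 84 genes except 1 that is not reported here, advanced minus control (points with bars of 1 SE), for FPC and CDAHFD; middle and right, the number of each gene's peaks that were called higher, called lower or not called on each diet. Dab2ip (1.35 on FPC, 1.36 on CDAHFD) stands at the top and Cmah (-1.24, -1.50) at the bottom, and most genes between them carry calls in both directions.

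Around Dab2ip, which encodes a GTPase-activating protein that restrains Ras signalling, nearly the whole locus opened. Its summed signal was 388, 398 and 371 CPM in FPC advanced livers, against 165, 163, 144 and 132 CPM in FPC controls. In CDAHFD advanced livers it was 411, 432 and 437 CPM, against 191, 156, 158 and 158 CPM in CDAHFD controls. Every advanced library lay above every control on both diets. The log2 change was 1.35 ± 0.0743 on FPC (SE, adjusted p = 6.91e-13, edgeR quasi-likelihood test, as for all gene sums and peaks below) and 1.36 ± 0.0716 on CDAHFD (adjusted p = 1.3e-13). Of its 22 peaks 18 rose on FPC and 20 on CDAHFD, and none fell. Among its peaks of above-median abundance, the one with the largest rise, chr2:35658457-35658657 in an intron, -33437 bp from the nearest start (negative is upstream), had 21.2, 19.9 and 18.8 CPM in FPC advanced livers, against 3.15, 1.59, 2.02 and 0.506 CPM in controls, a log2 change of 3.42 ± 0.284 (adjusted p = 3.01e-10). On CDAHFD it changed by 4.17 ± 0.253 on the log2 scale (adjusted p = 4.3e-13).

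Sgms1, the gene of a synthase that makes sphingomyelin from ceramide, was the only member whose peaks were all called in 1 direction on FPC. Its sum was 298, 349 and 302 CPM in FPC advanced livers, against 195, 178, 163 and 158 CPM in FPC controls, a log2 change of 0.87 ± 0.0777 (adjusted p = 1.82e-09), with all 24 peaks higher. On CDAHFD it was 314, 289 and 319 CPM in advanced livers, against 185, 184, 217 and 189 CPM in controls, a log2 change of 0.67 ± 0.0752 (adjusted p = 6.31e-08), with 15 peaks higher and none lower. The groups did not overlap on either diet.

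Sik1 encodes a salt-inducible kinase that holds back CREB coactivators. Its sum was 359, 361 and 357 CPM in FPC advanced livers, against 179, 205, 179.8 and 253 CPM in FPC controls, whose last library was the highest of them. CDAHFD advanced livers had 359.5, 327 and 357 CPM, against 186, 164, 211 and 217 CPM in CDAHFD controls. The log2 changes were 0.82 ± 0.116 (adjusted p = 1.78e-06) and 0.84 ± 0.113 (adjusted p = 8.98e-07). An intergenic peak at chr17:31874058-31874258, -18354 bp from the start, had 27.3, 25.1 and 26.4 CPM in FPC advanced livers, against 2.18, 2.12, 4.88 and 3.79 CPM in controls, a log2 change of 2.94 ± 0.248 on FPC and 3.14 ± 0.23 on CDAHFD. Myh9, the heavy chain of non-muscle myosin IIA, had 505, 541 and 527 CPM in FPC advanced livers, against 348, 311, 329 and 326 CPM in FPC controls, and 504, 576 and 511 CPM in CDAHFD advanced livers, against 329, 299, 334 and 344 CPM in CDAHFD controls. Both diets separated advanced from control libraries without overlap, with log2 changes of 0.68 ± 0.0571 (adjusted p = 7.59e-10) and 0.70 ± 0.0562 (adjusted p = 2.41e-10). Its intergenic peak at chr15:77856604-77856804, -14529 bp from the start, changed by 3.12 ± 0.26 on FPC and 3.59 ± 0.238 on CDAHFD, with 19.2, 27.9 and 22.1 CPM in FPC advanced livers, against 2.42, 4.51, 2.35 and 1.52 CPM in FPC controls.

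Smaller rises were found at Synj2, the gene of an inositol phosphate phosphatase, at Trim8, a ubiquitin ligase gene, and at the noncoding gene A630001O12Rik. Synj2 changed by 0.52 ± 0.0693 on FPC (adjusted p = 8.76e-07) and 0.24 ± 0.068 on CDAHFD (adjusted p = 0.00376). Trim8 changed by 0.46 ± 0.0545 (adjusted p = 1.22e-07) and 0.63 ± 0.0531 (adjusted p = 5.04e-10), and A630001O12Rik by 0.34 ± 0.0715 (adjusted p = 0.000281) and 0.45 ± 0.0701 (adjusted p = 6.85e-06). In all 3 the advanced libraries lay above the controls on both diets.

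The deepest closing was at Cmah, whose enzyme turns the sialic acid Neu5Ac into Neu5Gc. Its sum was 230.4, 157 and 169.7 CPM in FPC advanced livers, against 451, 425, 434 and 437 CPM in FPC controls, a log2 change of -1.24 ± 0.137 (adjusted p = 4.99e-08). In CDAHFD advanced livers it was 158, 146 and 187 CPM, against 425, 539, 431 and 463 CPM in CDAHFD controls, a log2 change of -1.50 ± 0.136 (adjusted p = 1.86e-09). The highest advanced library stayed below the lowest control on both diets. Of its 22 peaks 21 fell on FPC and 22 on CDAHFD, and none rose.

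Nudt7 encodes a peroxisomal enzyme that splits coenzyme A, and its sum was 264, 245 and 269.8 CPM in FPC advanced livers, against 445, 391, 419 and 383 CPM in FPC controls. In CDAHFD advanced livers it was 291, 294 and 289.7 CPM, against 365, 515, 369.8 and 385 CPM in CDAHFD controls, where the second library was the highest. The log2 changes were -0.66 ± 0.1 (adjusted p = 5.07e-06) and -0.49 ± 0.0982 (adjusted p = 0.000166). Foxp1, a forkhead repressor gene whose peaks spread over a very long locus, had 204, 203 and 216 CPM in FPC advanced livers, against 332, 312, 342 and 300.1 CPM in FPC controls, a log2 change of -0.63 ± 0.0625 (adjusted p = 9.18e-09). It had 205, 208 and 221 CPM in CDAHFD advanced livers, against 321, 331, 299 and 276 CPM in CDAHFD controls, a log2 change of -0.54 ± 0.0613 (adjusted p = 7.57e-08). In both genes every advanced library lay below every control.

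Palld, which encodes the actin scaffold palladin, had 226, 217 and 225 CPM in FPC advanced livers, against 319, 351, 314 and 353 CPM in FPC controls, and 233, 238 and 238 CPM in CDAHFD advanced livers, against 337, 285, 335 and 349 CPM in CDAHFD controls. Its sum changed by -0.59 and -0.47 on the log2 scale, although 5 of its 25 peaks rose on each diet beside 11 that fell on FPC and 15 on CDAHFD. The chromatin remodeller gene Chd7 changed by -0.62 ± 0.0534 (adjusted p = 9.62e-10) and -0.36 ± 0.0522 (adjusted p = 2.41e-06), and the cAMP phosphodiesterase gene Pde8a by -0.50 ± 0.0798 (adjusted p = 8.81e-06) and -0.60 ± 0.0786 (adjusted p = 6.01e-07). Chd7's peak at chr4:8687972-8688172, -2334 bp from the start, had 3.04, 4.84 and 4.30 CPM in FPC advanced livers, against 29.1, 20.4, 31.3 and 19.2 CPM in FPC controls, a log2 change of -2.62 ± 0.315. On CDAHFD it changed by -1.71 ± 0.287. Bcar3, an adaptor of the p130Cas scaffold, changed by -0.60 ± 0.0665 on FPC (adjusted p = 4.78e-08) and -0.31 ± 0.0652 on CDAHFD (adjusted p = 0.000221). The CDAHFD value was -0.05 (adjusted p = 0.566) when peaks within 1 kb of a start were left out. Gramd3 changed by -0.30 and -0.41 on the log2 scale, without overlap of libraries.

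**Figure D2:**
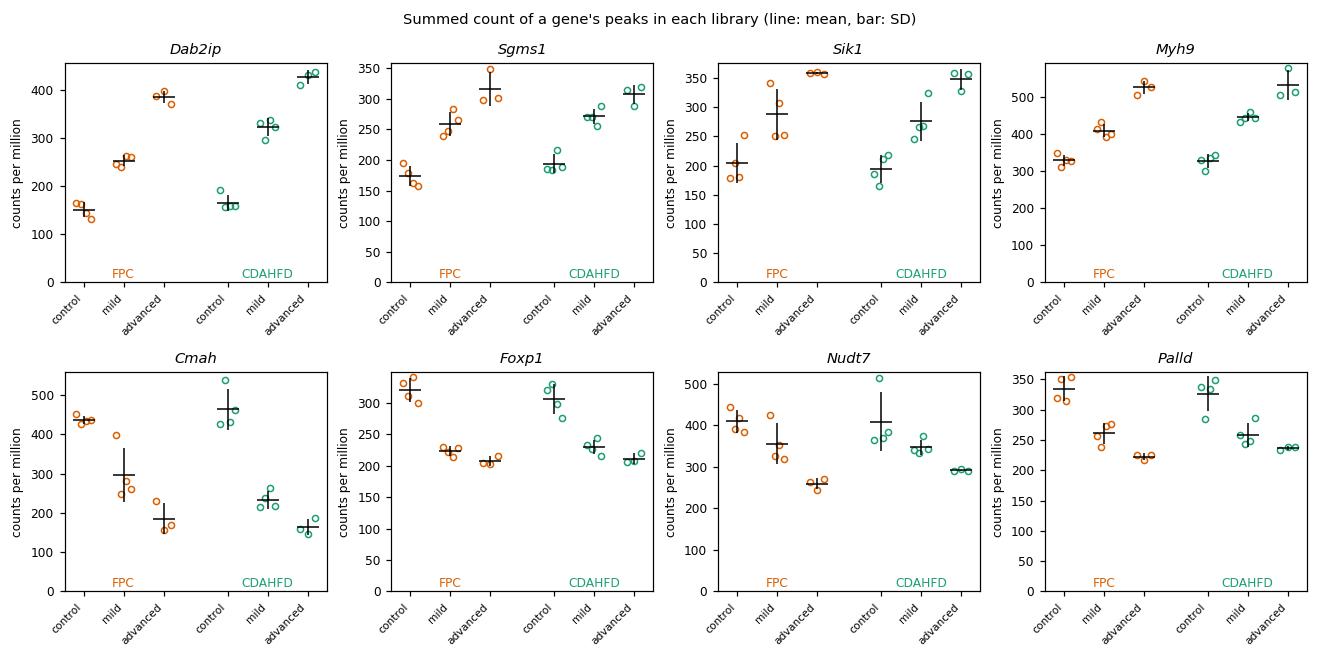
Summed CPM of the peaks of 8 genes in each of the 22 libraries (points; horizontal line, mean; vertical bar, SD), in control, mild and advanced livers of each diet. Dab2ip, Sgms1, Sik1 and Myh9 have their highest means in advanced livers, with the mild groups in between (Dab2ip mean log2 change 0.75 in FPC mild and 1.35 in FPC advanced livers). Cmah, Foxp1, Nudt7 and Palld have their lowest means there, with Foxp1 at -0.53 in FPC mild livers.

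In 4 of the 10 genes with the most peaks, Prkag2, Vgll4, Arhgef3 and Osbpl1a, peaks were called in both directions and the sum was not called on FPC. Prkag2, which encodes a regulatory subunit of AMP-activated kinase and has 37 peaks, had 476, 427 and 467 CPM in FPC advanced livers, against 488, 474, 423 and 449 CPM in FPC controls, and its sum did not pass the test on FPC (log2 -0.00 ± 0.0645, adjusted p = 0.957) or CDAHFD (-0.08 ± 0.0639, adjusted p = 0.271). Yet 9 of its peaks rose and 9 fell on FPC, and 9 rose and 12 fell on CDAHFD. With cyclic loess scaling its FPC sum was 0.21 higher on the log2 scale (adjusted p = 0.00509). Vgll4, whose protein competes with YAP for TEAD factors, had 32 peaks, of which 8 rose and 8 fell on FPC and 9 rose and 9 fell on CDAHFD, with sums of -0.08 ± 0.0704 and -0.06 ± 0.0693 (adjusted p = 0.322 and 0.495). The peak at chr6:114988701-114988901, intergenic and -19598 bp from the start, had 10.1, 19.5 and 14.96 CPM in FPC advanced livers, against 1.94, 0.795, 0.336 and 0.506 CPM in FPC controls. It had 11.5, 16.0 and 13.4 CPM in CDAHFD advanced livers, against 0.424, 0.299, 0.238 and 0.509 CPM in CDAHFD controls, and opened by 4.11 ± 0.386 and 5.17 ± 0.404 on the log2 scale. In the same gene an intronic peak at chr6:114938344-114938544 closed, to 3.04, 0.997 and 0.955 CPM in FPC advanced livers, against 6.30, 11.1, 11.4 and 13.9 CPM in FPC controls (log2 change -2.71 ± 0.46, and -3.51 ± 0.477 on CDAHFD).

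Col18a1, the gene of a basement membrane collagen, combined a peak that rose by 3.44 ± 0.222 on FPC (chr10:77142425-77142625, 19.6, 26.5 and 20.4 CPM in advanced livers, against 1.70, 2.39, 1.51 and 2.78 CPM in controls) with one 7325 bp downstream of the start that changed by -0.94 ± 0.165. It was 1 of the genes with the most peaks moving each way on both diets, with 7 higher and 7 lower, beside Prkag2 with 8 and 7, Iqsec1 (an Arf6 exchange factor) with 5 and 5 and Irf2bpl with 7 and 5; Myo10, Palld, Trak1 and Vgll4 tied with the last pair, at 5 peaks in the lesser direction. The sum of Col18a1 changed by -0.12 ± 0.0574 on FPC (adjusted p = 0.0714) and -0.16 ± 0.0566 on CDAHFD (adjusted p = 0.0193), and the CDAHFD call was lost with loess scaling (adjusted p = 0.318). Near Irf2bpl the intergenic peak chr12:86913385-86913585 had 4.81, 7.68 and 6.83 CPM in CDAHFD advanced livers, against 0, 0.598, 0.475 and 0 CPM in CDAHFD controls. The peak at chr12:86915746-86915946, next to it, had 0.855, 0.501 and 0 CPM in CDAHFD advanced livers, against 6.78, 6.28, 5.82 and 7.47 CPM in CDAHFD controls. These neighbours moved in opposite directions, and the rise of the first was not called with loess scaling (log2 0.67 on CDAHFD and -0.62 on FPC).

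Cmip held a peak 9032 bp downstream of its start, chr8:117358102-117358302, with 21.4, 24.5 and 25.5 CPM in FPC advanced livers, against 3.15, 3.71, 2.35 and 5.06 CPM in FPC controls (log2 2.78 ± 0.203, and 2.83 ± 0.19 on CDAHFD). A further intronic peak at chr8:117274310-117274510 changed by -2.43 ± 0.26 and -2.61 ± 0.272. Rassf3, a Ras association domain gene, had the largest FPC rise of any member peak of above-median abundance whose groups did not overlap, at chr10:121521055-121521255, -44905 bp from the start: 15.5, 20.9 and 18.1 CPM in FPC advanced livers, against 0.969, 0.530, 2.02 and 3.04 CPM in FPC controls, a log2 change of 3.43 ± 0.253. On CDAHFD this peak changed by 3.98 ± 0.218, with 30.8, 25.9 and 26.5 CPM in advanced livers, against 2.26, 1.496, 1.90 and 1.19 CPM in controls. The sum over all 30 Rassf3 peaks moved the other way on FPC, by -0.33 ± 0.0678 (adjusted p = 0.000233), a call lost with loess scaling (-0.10, adjusted p = 0.135). Arhgef3, an exchange factor for RhoA, held an intronic peak (chr14:27299778-27299978) at 4.38, 4.56 and 4.93 CPM in FPC advanced livers, against 0.242, 0.265, 0.168 and 0.506 CPM in FPC controls, while its sum was not called (log2 0.06 ± 0.0546, adjusted p = 0.327). That sum passed the test with loess scaling, at 0.25 (adjusted p = 8.83e-05).

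Rbm47, with 39 peaks the richest locus, leaned to closing: 3 peaks rose and 22 fell on FPC, and 6 rose and 16 fell on CDAHFD. Its sum was 631, 622 and 648 CPM in FPC advanced livers, against 899.7, 823, 849 and 787 CPM in FPC controls, a log2 change of -0.41 ± 0.0544 (adjusted p = 8.25e-07), and -0.22 ± 0.0538 on CDAHFD (adjusted p = 0.00121, and 0.102 with loess scaling). Rxra, the shared partner of many nuclear receptors, had 3 peaks higher and 13 lower on FPC and 9 and 8 on CDAHFD. Its sum changed by -0.34 ± 0.0589 on FPC (adjusted p = 3.17e-05, and 0.0558 with loess scaling) and by -0.11 ± 0.0579 on CDAHFD (adjusted p = 0.104). Osbpl1a, an oxysterol-binding protein relative, had few calls for its 29 peaks: 5 higher and 2 lower on FPC, and 6 and 5 on CDAHFD.

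**Figure D3:**
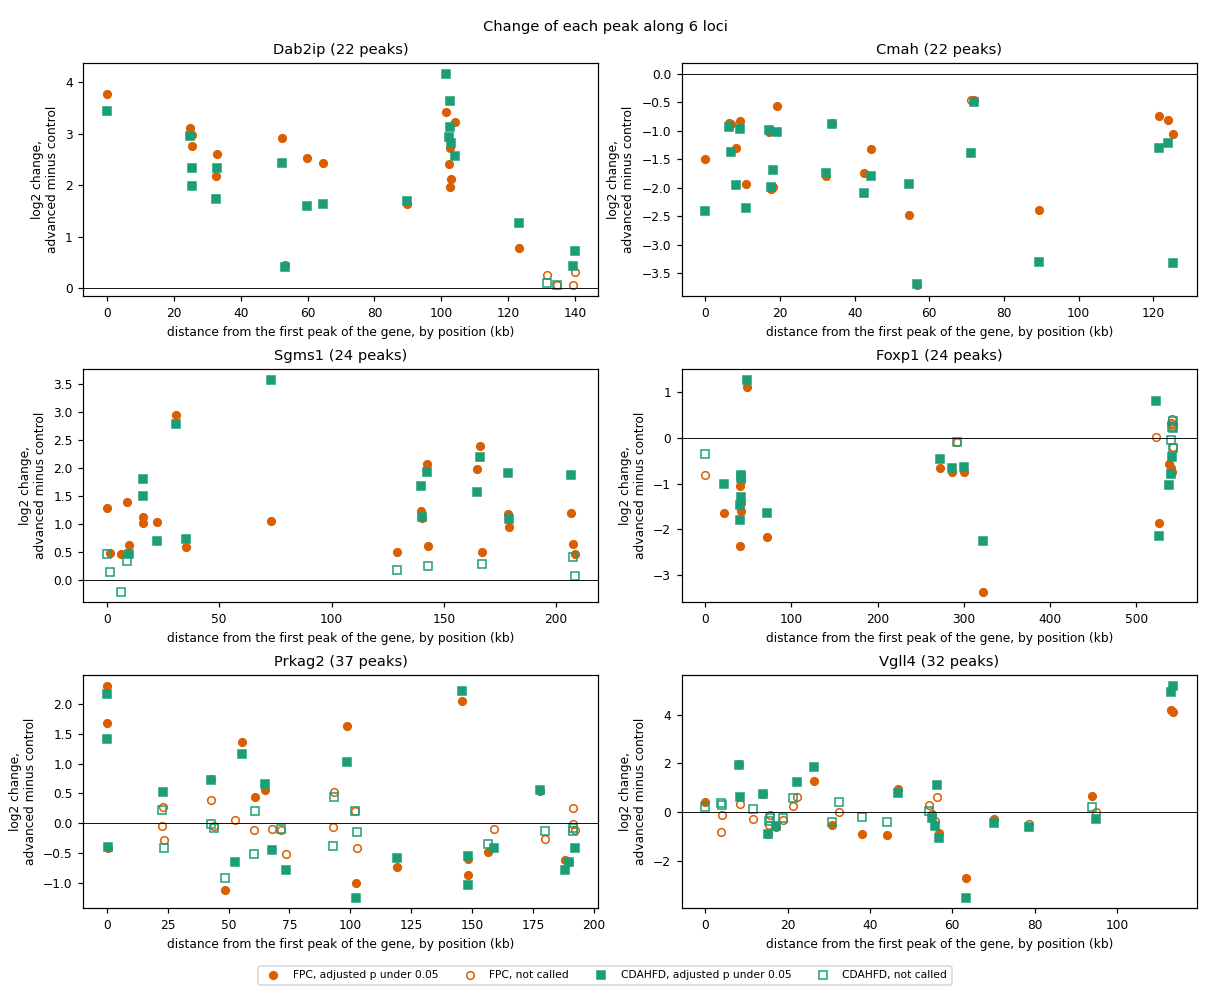
Log2 change (advanced minus control) of each peak of 6 genes against its distance in kb from the gene's first peak by position; filled symbols, adjusted p under 0.05; circles, FPC; squares, CDAHFD. In Dab2ip no peak is called lower and in Cmah none is called higher, Foxp1 has 15 lower peaks on each diet, and Prkag2 and Vgll4 mix higher and lower peaks along the locus (Vgll4 8 and 8 on FPC).

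Grouped by role, the transcription factor genes among the 84 fell or were not called. Of the hepatocyte factors Cebpa, Nr5a2 and Prox1, the first 2 fell on FPC, and Nr5a2 on CDAHFD. Nr5a2, a nuclear receptor for bile acid and cholesterol genes, had 389, 404.6 and 411 CPM in FPC advanced livers, against 499, 517, 553 and 557 CPM in FPC controls (log2 -0.41 ± 0.0523, adjusted p = 4.97e-07). Over the whole list of 26 hepatocyte factors, 4 genes rose and 11 fell on FPC and 8 and 10 on CDAHFD. Bcl6, Foxp1, Nfix and Rreb1, on a wider list of factors and corepressors, all fell on both diets, with median log2 changes of -0.48 and -0.40, whereas 65 of the 162 measured genes of that list rose on FPC and 48 fell. Sik1, on the list of immediate early genes, rose beside 17 of 29 genes on that list that rose on FPC and 19 on CDAHFD. These lists were drawn up with earlier results of these data known.

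Among lipid genes, Acsl1, Dgat2 and Insig1 fell on both diets, Sgms1 rose, and Gpam was not called (log2 0.05 ± 0.0704, adjusted p = 0.514 on FPC). Acsl1, which activates long-chain fatty acids, had 475, 449.7 and 485 CPM in FPC advanced livers, against 649.5, 662, 661 and 684 CPM in FPC controls, a log2 change of -0.50 ± 0.0561 (adjusted p = 6.42e-08), and -0.34 ± 0.0555 on CDAHFD (adjusted p = 1.2e-05). Insig1, which keeps the sterol sensor in the endoplasmic reticulum, changed by -0.54 ± 0.0757 and -0.32 ± 0.075. Of the 157 lipid and sterol genes measured, 33 rose and 69 fell on FPC, and 33 rose and 61 fell on CDAHFD. Of 5 growth factor and signalling genes, Igf1, Pik3r1, Ptprj and Vegfa fell on FPC (Ptprj not with loess scaling, at 0.04, adjusted p = 0.593) and only Pik3r1 and Vegfa on CDAHFD, while Prkag2 was not called. Of the 152 measured genes on that list, 48 rose and 57 fell on FPC, and 50 rose and 52 fell on CDAHFD. Pik3r1, the regulatory subunit of phosphoinositide 3-kinase, changed by -0.42 ± 0.0528 (adjusted p = 3.52e-07) and -0.23 ± 0.0518 (adjusted p = 0.000621). Vegfa changed by -0.23 ± 0.0557 (adjusted p = 0.0011) and -0.29 ± 0.0552 (adjusted p = 9.48e-05), and its FPC call was lost with loess scaling (-0.02, adjusted p = 0.788). Igf1, named here although outside the naming rule, spread widely between libraries: 223, 261 and 193 CPM in FPC advanced livers, against 435, 264, 449 and 252 CPM in FPC controls, so the groups overlapped despite an adjusted p of 0.0252.

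Of the cytoskeleton and adhesion genes, Myh9 and Sept9 rose and Daam1, Mtus1, Myo10 and Palld fell on FPC, Myh9 rose and Mtus1 and Palld fell on CDAHFD, and Arhgef3 was not called on either. On that list of 124 measured genes 46 rose and 40 fell on FPC, and 48 rose and 31 fell on CDAHFD. Vgll4 was the only member on the list of biliary, progenitor and YAP target genes, of which 32 of 43 rose and 3 fell on FPC. Of the transporter genes, Abca1, Slc38a4 and Slc6a6 fell and Slc25a33 rose on FPC, and on CDAHFD Abca1 and Slc38a4 fell and Slc25a33 rose. Over the 398 measured transporter genes, 95 rose and 143 fell on FPC, and 95 rose and 135 fell on CDAHFD. Aldh1l1, a folate enzyme gene, fell on both diets. On its list of 194 measured detoxification genes, 29 rose and 103 fell on FPC, and 37 rose and 85 fell on CDAHFD. Of 6 noncoding or unnamed genes, 0610040J01Rik changed by -0.47 ± 0.0706 (adjusted p = 4.12e-06) and -0.30 ± 0.0687 (adjusted p = 0.000581), 4933440J02Rik fell on FPC, A630001O12Rik rose on both, and 2900026A02Rik, Mir3075 and Mir7661 were not called on FPC. Over all 2229 measured noncoding or unnamed genes, 629 rose and 815 fell on FPC, and 623 rose and 773 fell on CDAHFD. None of the 84 was on the lists of plasma protein or glucose and amino acid genes, and 45 were on no list.

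Alternative starts of the same gene often changed by different amounts. At 22 pairs of starts in 18 genes, the ratio of a further start's peak to that of the most upstream start was compared between advanced and control livers with a two-sided exact permutation test within diets (1225 arrangements, smallest possible p 0.000816). The test statistic was the mean of the changes on both diets, so each p covers the diets together and none is for a single diet. This test was chosen after the values were seen. With p adjusted over the 579 such pairs of all 535 genes that have them, 14 of the 22 pairs (63.6%) differed (adjusted p under 0.05), with the further start gaining on the first in 9 and losing in 5, where 42.1% of all pairs and 47.5% of the 122 pairs in genes with 10 to 19 peaks differed. The median size of the change in log2 ratio was 0.70 over the 22 pairs, beside 0.28 over all pairs. Pairs of 1 gene share its first start and are not independent, so these shares are a description. Sept9 had 4 starts with a peak, and Dab2ip and Trak1 had 3 each. Dab2ip start 1 had 34.1, 37.6 and 34.8 CPM in FPC advanced livers, against 4.36, 3.18, 6.39 and 3.29 CPM in FPC controls, and 28.2, 36.7 and 30.7 CPM in CDAHFD advanced livers, against 9.04, 5.38, 5.46 and 5.09 CPM in CDAHFD controls, log2 changes of 2.98 ± 0.223 and 2.34 ± 0.195. Start 2 changed by 2.43 ± 0.259 and 1.62 ± 0.24. Start 3, 109154 bp from start 1, did not pass the test, with 38.3, 29.9 and 36.9 CPM in FPC advanced livers, against 36.1, 34.5, 31.9 and 32.4 CPM in FPC controls (log2 0.05 ± 0.103, adjusted p = 0.673, and 0.05 ± 0.096 on CDAHFD, adjusted p = 0.688). The log2 ratio of start 3 to start 1 thus changed by -3.02 on FPC and -2.32 on CDAHFD (exact permutation test, adjusted p = 0.00482, where p was the smallest the test can give).

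At Sgms1 the downstream start, 177499 bp from the first, opened more than the first. It had 15.8, 16.5 and 11.1 CPM in FPC advanced livers, against 1.94, 1.86, 1.34 and 2.53 CPM in FPC controls, and 11.8, 12.3 and 12.2 CPM in CDAHFD advanced livers, against 1.13, 2.84, 1.78 and 1.19 CPM in CDAHFD controls. Its log2 changes were 2.95 ± 0.243 and 2.78 ± 0.225. Start 1 had 21.2, 26.2 and 26.2 CPM in FPC advanced livers, against 19.9, 15.4, 18.8 and 16.7 CPM in FPC controls, a log2 change of 0.47 ± 0.114 (adjusted p = 0.00108), and 0.08 ± 0.104 on CDAHFD (adjusted p = 0.535). The log2 ratio of start 2 to start 1 was higher by 2.39 on FPC and 2.77 on CDAHFD (exact permutation test, adjusted p = 0.00482). Even so, start 2 remained below start 1 in every advanced and control library.

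Prkag2 too gained at its downstream start relative to the first. Its start 2, 192133 bp downstream of start 1, had 11.5, 11.1 and 12.7 CPM in FPC advanced livers, against 2.42, 2.39, 1.85 and 3.04 CPM in FPC controls, and changed by 2.30 ± 0.203 on FPC and 2.17 ± 0.193 on CDAHFD. Start 1 had 20.1, 19.1 and 20.7 CPM in FPC advanced livers, against 21.1, 21.7, 21.9 and 21.8 CPM in FPC controls (log2 -0.12 ± 0.102, adjusted p = 0.336), and on CDAHFD it fell (log2 -0.41 ± 0.0964, adjusted p = 0.000757). The log2 ratio of start 2 to start 1 was higher by 2.36 and 2.57 (exact permutation test, adjusted p = 0.00482). In Bcar3 the downstream start closed more: start 2, 63812 bp away, had 10.1, 7.98 and 11.5 CPM in FPC advanced livers, against 27.6, 26.5, 25.6 and 26.6 CPM in FPC controls, a log2 change of -1.43 ± 0.147, and -1.22 ± 0.141 on CDAHFD. Bcar3 start 1 changed by -0.49 ± 0.142 and -0.46 ± 0.134. The log2 ratio of start 2 to start 1 changed by -0.94 on FPC and -0.76 on CDAHFD (exact permutation test, adjusted p = 0.00482).

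Sept9, a septin gene with 4 starts that carry a peak, gained at its 3 downstream starts relative to the first, by 1.36, 1.503 and 1.49 on FPC and 0.98, 1.77 and 0.83 on CDAHFD (exact permutation test, adjusted p = 0.0145, 0.0162 and 0.0120). The ratios of advanced and control libraries overlapped on CDAHFD at starts 2 and 4 and on FPC at start 3. Sept9 start 2 had 7.59, 7.12 and 10.98 CPM in FPC advanced livers, against 1.94, 2.65, 1.68 and 2.02 CPM in FPC controls. Foxp1 gained at a start 492695 bp downstream, by 0.64 on FPC and 1.27 on CDAHFD (exact permutation test, adjusted p = 0.0180), although the gene's sum fell. On FPC the Foxp1 log2 ratios overlapped, at -1.6 to -1.02 in advanced livers and -2.45 to -1.22 in controls. Both peaks were low, and the downstream one had 5.06, 8.26 and 8.27 CPM in FPC advanced livers, against 2.91, 4.24, 3.19 and 3.04 CPM in FPC controls (log2 1.12 ± 0.223). The other pairs past the threshold were in Fam214a, Gpam, Papss2, Prox1, Slc38a4 and Trak1.

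**Figure D4:**
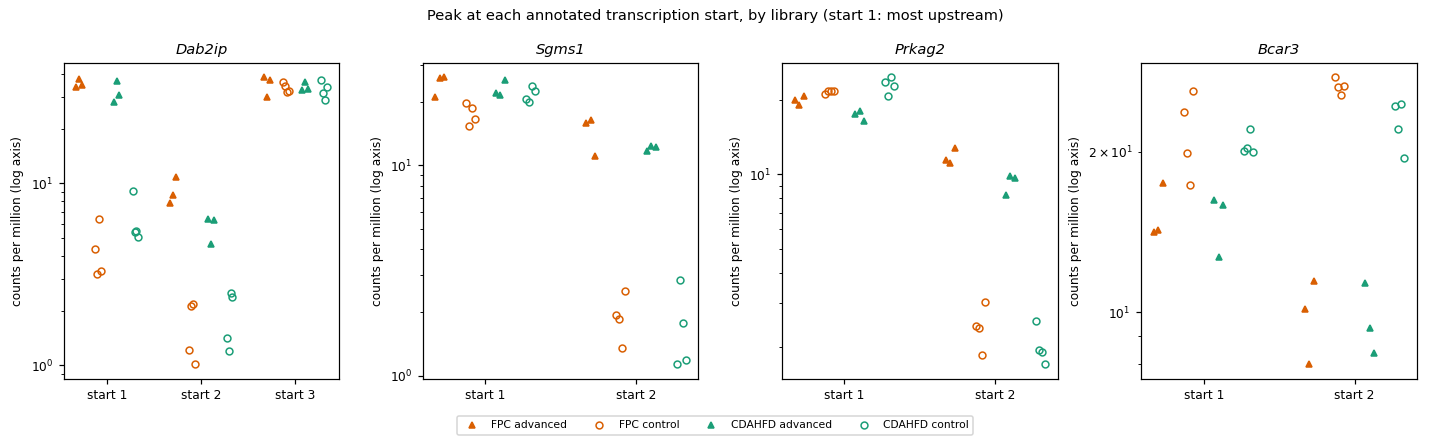
CPM of the peak at each start of Dab2ip, Sgms1, Prkag2 and Bcar3 (log axis), 1 symbol per library; triangles, advanced; open circles, control; start 1 is the most upstream. Advanced and control symbols separate at Dab2ip starts 1 and 2, at Sgms1 and Prkag2 start 2 and at Bcar3 start 2, and mix at Dab2ip start 3 (log2 change 0.05 on both diets). FPC symbols also separate, by less, at Sgms1 start 1 (advanced higher) and Prkag2 start 1 (advanced lower).

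Mild livers also differed from controls at many of these sites. Mild and advanced mice of each diet were taken at the same week, so their order is by histology and not by time. On FPC 223 member peaks were higher and 298 lower in mild than in control livers, 26.5%, where 28.8% of all peaks were called, 15.1% higher and 13.6% lower. On CDAHFD 369 were higher and 388 lower, 38.5%, where 40.7% were called, 20.7% higher and 20.0% lower. By gene sums 12 rose and 35 fell in FPC mild livers (56.0%, where 40.2% of genes were called, 21.3% higher and 18.9% lower). In CDAHFD mild livers 11 rose and 28 fell (46.4%, where 44.9% were called, 23.9% higher and 21.0% lower). With loess scaling these splits were 22 and 24, and 18 and 19. Dab2ip changed by 0.75 ± 0.0713 in FPC mild livers and by 0.96 ± 0.0677 in CDAHFD mild livers, Cmah by -0.56 ± 0.122 and -0.996 ± 0.121, and Foxp1 by -0.53 ± 0.0577 and -0.42 ± 0.056. Foxp1 thus had most of its advanced change in mild livers, with 332, 312, 342 and 300.1 CPM in FPC controls, 230.0, 222, 213 and 228 CPM in mild and 204, 203 and 216 CPM in advanced livers. Cmah ran in FPC mild livers over 399, 248, 281 and 260.1 CPM, with the first library closest to the controls. The intronic Dab2ip peak had 1.55, 2.69, 1.43 and 0.340 CPM in CDAHFD control, 25.6, 24.9, 30.8 and 24.5 CPM in CDAHFD mild and 25.4, 30.4 and 28.0 CPM in CDAHFD advanced livers.

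Advanced against mild livers, which differ by fibrosis, separated 281 member peaks as higher and 282 as lower on FPC (28.6%, where 29.3% of all peaks were called, 14.7% higher and 14.6% lower). On CDAHFD 163 were higher and 140 lower (15.4%, where 16.5% were called, 9.28% higher and 7.26% lower). By gene sums 10 rose and 26 fell on FPC (42.9%, where 31.5% were called, 15.6% higher and 15.9% lower), and 5 rose and 9 fell on CDAHFD (16.7%, where 17.4% were called, 9.63% higher and 7.76% lower). Of genes with 10 to 19 peaks, 39.6% were called on FPC (12.6% higher, 27.0% lower) and 17.9% on CDAHFD (7.28% higher, 10.6% lower). Without the second FPC advanced library the FPC shares were 17.0% of member peaks and 21.4% of member genes, and without the second CDAHFD advanced library the CDAHFD shares were 8.64% and 4.76%. Dab2ip was higher in advanced than in mild livers by 0.61 ± 0.0713 on FPC (adjusted p = 9.29e-07) and 0.40 ± 0.0699 on CDAHFD (adjusted p = 0.000304). Cmah differed by -0.68 ± 0.136 (adjusted p = 0.000451) and -0.51 ± 0.135 (adjusted p = 0.0105). At Dab2ip start 1 the FPC libraries had 4.36, 3.18, 6.39 and 3.29 CPM in control, 7.03, 10.2, 11.2 and 12.0 CPM in mild and 34.1, 37.6 and 34.8 CPM in advanced livers. Most of this start's difference from control thus lay between the mild and the advanced group.

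Member peaks called on both diets, which had separate controls, moved the same way on each, as did nearly all such peaks of the whole table. Of the 1066 member peaks called on FPC and the 1071 called on CDAHFD, 805 were called on both, which is 75.5% of the FPC calls and 75.2% of the CDAHFD calls, beside 76.4% of each over all peaks. All 805 had the same direction, 353 higher and 452 lower, whereas 167 of 29222 peaks called on both diets over the whole table went opposite ways. By gene sums, 46 members were called on both diets, 13 higher and 33 lower, which is 78.0% of the FPC calls and 88.5% of the CDAHFD calls, beside 74.8% and 79.0% over all genes. Across the 1968 peaks Pearson's r of the 2 log2 changes was 0.899, beside 0.912 over all peaks, as a description over peaks that share libraries.

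**Figure D5:**
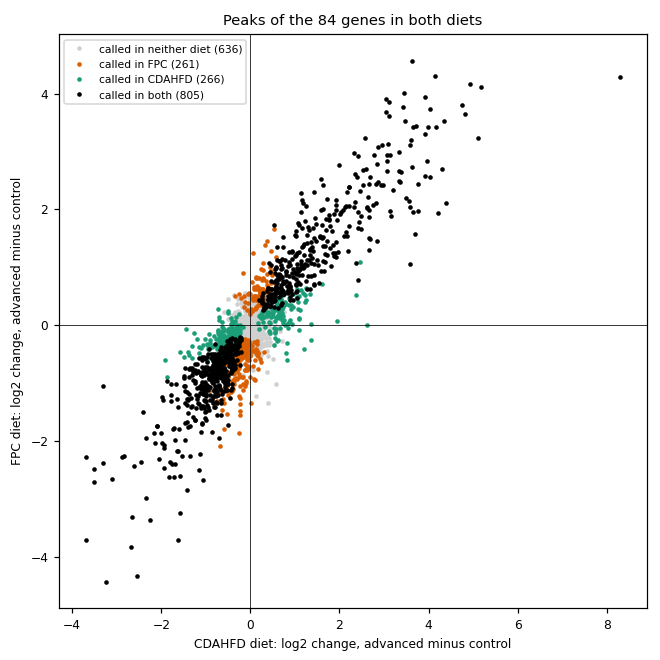
Log2 change, advanced minus control, of the 1968 member peaks on FPC (vertical) against CDAHFD (horizontal), coloured by whether the peak was called on neither diet (636), FPC only (261), CDAHFD only (266) or both (805). All 805 peaks called on both lie in the lower left or upper right quadrant.

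A test of the difference between diets called 17 member peaks in the advanced change, 4 with a higher and 13 with a lower change on FPC (0.864%, where 1.6% of all peaks were called, 0.69% higher and 0.91% lower). In the mild change 14 were higher and 40 lower (2.74%, where 3.47% were called, 1.84% higher and 1.63% lower). By gene sums 1 gene was higher and 4 lower in each (5.95%, where 4.87% of genes were called for advanced livers, 1.92% higher and 2.95% lower, and 5.27% for mild livers, 2.49% higher and 2.79% lower). These small counts moved with single libraries, to between 0.559% and 1.52% of member peaks for the advanced change when 1 library was left out, the ends being without the third FPC control and without the second CDAHFD control. The intronic Cmah peak at chr13:24446221-24446421 had 22.1, 8.69 and 11.5 CPM in FPC advanced livers, against 30.5, 35.0, 22.2 and 28.8 CPM in FPC controls. It fell further on CDAHFD, to 3.63, 3.34 and 3.98 CPM in advanced livers, against 38.4, 38.3, 38.0 and 31.9 CPM in CDAHFD controls. The difference, FPC minus CDAHFD, was 2.27 ± 0.331 (adjusted p = 0.000588). The intronic Pik3r1 peak at chr13:101753790-101753990 went the other way, with 11.5, 9.40 and 7.16 CPM in FPC advanced livers, against 31.2, 35.3, 28.9 and 27.8 CPM in FPC controls, and 16.8, 22.9 and 21.9 CPM in CDAHFD advanced livers, against 35.2, 31.1, 29.6 and 18 CPM in CDAHFD controls, a difference of -1.22 ± 0.24 (adjusted p = 0.00892).

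Of gene sums, Sept9 had 462, 421 and 489 CPM in FPC advanced livers, against 409, 398, 348 and 409 CPM in FPC controls, and 376, 391 and 337 CPM in CDAHFD advanced livers, against 393, 362, 460.3 and 416 CPM in CDAHFD controls. Its change differed between diets by 0.38 ± 0.102 (adjusted p = 0.0319), and its FPC rise was 0.15 (adjusted p = 0.104) without the third FPC advanced library. The unnamed gene 4933440J02Rik had 219, 253 and 232 CPM in FPC advanced livers, against 474, 386, 529 and 370.3 CPM in FPC controls, and 318, 304 and 305 CPM in CDAHFD advanced livers, against 346, 477, 337 and 320.4 CPM in CDAHFD controls. It fell on FPC (-0.91 ± 0.129, adjusted p = 1.96e-06), was not called on CDAHFD (-0.26 ± 0.125, adjusted p = 0.0798) and differed by -0.65 ± 0.178 (adjusted p = 0.0341). Jade1, a subunit of a histone acetyltransferase complex, fell more on FPC (-0.52 ± 0.0581) than on CDAHFD (-0.16 ± 0.0568), a difference of -0.36 ± 0.0808 (adjusted p = 0.0109). Ptprj, a receptor tyrosine phosphatase gene, changed by -0.16 ± 0.0513 on FPC and 0.12 ± 0.0506 on CDAHFD, a difference of -0.27 ± 0.072 (adjusted p = 0.0277), and Chd7 by -0.62 and -0.36, a difference of -0.26 ± 0.0741 (adjusted p = 0.0409). The calls of the diet difference at these 5 genes were each lost under at least 1 alternative: with loess scaling the adjusted p was 0.0845 for 4933440J02Rik, 0.0836 for Jade1, 0.281 for Ptprj and 0.217 for Chd7, and for Sept9 it was 0.0878 when only the 4 groups compared were fitted.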

How the data were processed

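Open chromatin was measured by ATAC-seq in 22 libraries. The authors deposited an un-normalized table of expected counts over 68827 merged peaks of 200 bp, per the file headers; its values go in steps of 0.5, so they were rounded to whole numbers. Distances from the nearest start, a score column in bp, region types and gene names were used as deposited by the authors. The submitters' processing notes name mm10, HOMER, SAMtools, DESeq2 and BWA 0.7.5a-r405. No source used here states how peaks were merged across libraries. The labels name no batch.

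Peaks within 50 kb were summed per gene. Both tables were tested with edgeR 4.0.16 (quasi-likelihood, TMM, 6 groups, all libraries; R 4.3.3), with Benjamini-Hochberg adjustment over the whole table at 0.05; errors are SE. Genes named are those with the most peaks, the largest changes, the most opposed peaks, the largest diet differences and the smallest p per list; 1 member is not reported by name here. The members and lists were chosen with earlier results of these data known. Alternatives were DESeq2 1.42.0, limma 3.58.1 with cyclic loess, other distances and peak minimums, and leaving out each library. RefSeq start sequences were found for 66 of the 84 genes. In data simulated for FPC advanced against control, the test recovered 0% of 1.25-fold, 22% of 1.5-fold, 78% of 2-fold and 100% of 4-fold changes among 68827 peaks, and 36%, 78%, 98% and 100% among 15686 gene sums. Only 50 features per size of change were altered there, whereas 55.6% of peaks and 61.5% of gene sums were called in the real comparison. The adjusted threshold was therefore stricter in the simulation, and these recoveries do not give the power in the real data. Totals of 3785066 to 9328963 counts per library limit the precision of low peaks, and PCR reads are not independent molecules.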

Additional observations from a re-analysis of the deposited data

Results flagged for a closer look

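Among 204 groups of 4 libraries, 11 held a library far from the other 3; chance gives about 1 in 20. In summed gene CPM, the second CDAHFD control was high at Nudt7 (514.7, the others 365.1 to 384.7) and 4933440J02Rik (477.0, the others 320.4 to 346.3). The third CDAHFD control was high at Sgms1 (217.0, the others 183.8 to 188.8) and Col18a1 (560.5, the others 507.5 to 512.6), and the first at Dab2ip (191.1, the others 155.7 to 158.0). The fourth FPC control was high at Vgll4 (475.7, the others 416.5 to 423.3), the first FPC mild library at 4933440J02Rik (360.7, the others 261.0 to 277.0) and the second FPC mild library at 0610040J01Rik (240.6, the others 224.6 to 226.5). In single-peak CPM, the first FPC mild library was high at the Cmah peak 11190 bp from the start (27.72, the others 4.333 to 5.68) and at the named Nek6 peak (14.06, the others 3.166 to 3.786). The fourth CDAHFD control was low at the Cmah peak 31199 bp from the start (31.92, the others 38.02 to 38.42).

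The change from control differed between the diets, FPC minus CDAHFD, in these log2 values (edgeR quasi-likelihood test, adjusted over the whole table). Sept9 differed by 0.38 in advanced livers (adjusted p = 0.0319) and 0.35 in mild livers (adjusted p = 0.0292). 4933440J02Rik differed by -0.65 (adjusted p = 0.0341) and -0.57 (adjusted p = 0.0403), Jade1 by -0.36 (adjusted p = 0.0109) and -0.26 (adjusted p = 0.0408), and Ptprj by -0.27 (adjusted p = 0.0277) and -0.33 (adjusted p = 0.00479). Chd7 differed by -0.26 in advanced livers (adjusted p = 0.0409). Of single peaks, the Cmah peak 31199 bp from the start differed by 2.27 in advanced livers (adjusted p = 0.000588) and 1.45 in mild livers (adjusted p = 0.00217), and the Pik3r1 peak by -1.22 in advanced livers (adjusted p = 0.00892). In mild livers the Fam214a peak differed by -1.24 (adjusted p = 0.0285) and the Pde8a peak by 1.36 (adjusted p = 0.0428).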

How the results depend on the processing

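No paired analysis was possible because no mouse gave more than 1 library and replicate numbers only follow accession order. Of the shares of members called, 214 values under other settings stayed within 1.5 times the reported share and 26 did not. With cyclic loess, 35.7% of member genes were higher and 34.5% lower on FPC, 8.94% of peaks were called in CDAHFD advanced against mild, and 2.38% of genes in the mild diet difference. DESeq2 called 1.73% of peaks in the advanced diet difference and 9.52% of genes in the mild one. Fitting only the groups compared gave 0.407% of peaks and 1.19% of genes in the advanced diet difference, 3.57% of genes in the mild one, 26.2% in CDAHFD advanced against mild, and 11.9% higher on CDAHFD. Summing only peaks over 1 kb from the start gave 27.4% of genes higher on FPC and 1.19% in the advanced diet difference, and reducing overlapping peaks gave 8.93% higher on FPC and 10.7% in CDAHFD advanced against mild. Peak-table factors gave 3.57% of genes in the advanced diet difference, and no TMM gave 3.57% in both diet differences. A 20 kb limit gave 23.1% of genes in CDAHFD mild against control, 23.1% in FPC advanced against mild and 0.0% in CDAHFD advanced against mild. A minimum of 25 peaks gave 22.2% lower on CDAHFD, 27.8% and 11.1% in advanced against mild on FPC and CDAHFD, and 16.7% in each diet difference. The cause was not tested.

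Leaving out 1 library gave 17.0 to 27.3% of peaks and 21.4 to 39.3% of genes in FPC advanced against mild (lowest without FPC advanced 2), and 8.64 to 14.8% and 4.76 to 14.3% on CDAHFD (lowest without CDAHFD advanced 2; genes also under 11% without CDAHFD advanced 3 and mild 1, 2 and 4). The diet differences gave 0.559 to 1.52% and 1.32 to 4.73% of peaks and 1.19 to 7.14% of genes in each, lowest for peaks without FPC control 3 and highest without CDAHFD control 2. Advanced against control stayed at 19.2 to 22.4% of peaks higher and 27.4 to 29.7% lower on FPC, and 21.7 to 23.8% and 25.4 to 30.2% on CDAHFD. Values that changed sign did so with cyclic loess on FPC: Prkag2 0.21, Iqsec1 0.015, Irf2bpl 0.19 and Ptprj 0.038 by sum, and the highest-rising peaks of Osbpl1a (-0.34, and -0.011 on CDAHFD), Rxra (-0.070) and Irf2bpl (-0.62). Of named gene values under other settings, 1450 kept direction and call, 51 lost and 25 gained the call.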
